A study of Mus musculus with 16 samples.

Results

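The mitochondrial ribosomal protein genes were taken as all genes of the expression table whose symbol starts with Mrps or Mrpl followed by a digit, leaving out pseudogene names. The rule found 77 genes among 20056 listed, and no pseudogene name had to be dropped. By known position of the protein, 26 belong to the small subunit of the mitochondrial ribosome and 50 to the large subunit. The symbols do not always follow the subunit: Mrps18a and Mrps30 carry a small-subunit name and sit in the large subunit, and Mrps36 is a component of the 2-oxoglutarate dehydrogenase complex.

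The mitochondrial ribosome is built inside mitochondria from ribosomal RNA encoded by mitochondrial DNA and from proteins that are all encoded in the nucleus, made in the cytosol and imported. It translates the few mitochondrially encoded messages, which specify core subunits of the respiratory chain and of ATP synthase. Part of its proteins descend from bacterial ribosomal proteins, and part were gained during mitochondrial evolution. Both subunits are needed for respiration, and proliferating cells must make new mitochondrial ribosomes as they grow.

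Libraries of polyadenylated RNA came from sorted osteoblasts (OB) and sorted mesenchymal stem cells (MSC) of 4 miR-9-1-deficient mice, made by CRISPR/Cas9 editing, and of 4 wild-type mice. This gave 16 libraries in 4 groups of 4: deficient OB, wild-type OB, deficient MSC and wild-type MSC. Mice are lettered E to H (deficient) and A to D (wild-type), and a letter stands for the same animal number in both cell types. Strain, sex, age, sort gates and the number of founder lines are not given in the labels.

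The libraries held 15543693 to 18962771 recovered reads for OB and 10148197 to 14246986 for MSC. The edited gene Mir9-1 (chr3:88215613-88215635 for its mature 5p strand, plus strand, GRCm38.p6) was almost unread: 0, 3, 0 and 0 reads in deficient OB E to H, 7, 16, 0 and 4 reads in wild-type OB A to D, and 0 reads in every MSC library, so the loss was not detectable in MSC at this depth. The label OB was not matched by its markers. All 10 MSC markers and 8 of 12 osteoblast markers were lower in wild-type OB than in wild-type MSC libraries, while 9 of 10 blood progenitor markers, all 10 erythroid markers and all 12 cell cycle markers were higher. The erythroid markers Hba-a1 and Hba-a2 had the same lowest and highest value in every group, so they may not be separate measurements. In deficient mice 5 MSC markers and 7 osteoblast markers were lower in OB. The counts of higher blood progenitor, erythroid and cell cycle markers were the same as in wild-type mice. Of 9 neutrophil markers, 6 were lower and 1 higher in wild-type OB, and 6 lower and 2 higher in deficient OB. Of 9 B-cell markers tested in wild-type mice, 6 were lower and 1 higher, and of 6 in deficient mice 1 lower and 2 higher. Over all genes tested 35.5% were lower and 34.4% higher in wild-type OB, and 30.6% and 29.0% in deficient OB. The stem cell factor receptor gene Kit averaged 4053 ± 327 normalized counts in deficient OB, 4152 ± 355 in wild-type OB, 478 ± 179 in deficient MSC and 507 ± 84.9 in wild-type MSC libraries (SD, n = 4 each). Every OB library also held both the female-expressed Xist (at least 3720 normalized counts) and the Y-linked Ddx3y (at least 649), so an OB library may hold RNA of more than 1 mouse. In MSC libraries Xist ran from 327 to 14158 in deficient and 291 to 13464 in wild-type mice. Ddx3y ran from 46.8 to 3355 and from 29.8 to 2396 in the same MSC groups. "OB" and "MSC" below mean the libraries so labelled.

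Short regulatory elements are known from promoters of nuclear genes for mitochondrial proteins: the binding motifs of NRF1, of the ETS factor GABP (NRF2) and of YY1. RefSeq promoter windows (GRCm38.p6, from 250 bases before to 50 after a start) were found for 68 of the 77 genes, 74 windows in all. The ETS motif CCGGAAG, on either strand, was in 33.8% of these windows, against 13.0% of 17594 windows of all genes in the table. The NRF1 motif GCGCNTGCGC was in 17.6% against 7.36%, and the YY1 motif ATGGCGGC in 16.2% against 3.50%. The E-box CACGTG, which Myc can bind, was in 9.46% against 8.77% of windows but, counted once per gene, in 5 of 68 genes (7.35%) against 10.2%. By gene the ETS, NRF1 and YY1 motifs were in 36.8, 19.1 and 17.6% against 14.9, 8.48 and 4.15%. By window, the TATA box TATAAA was in 6.76% against 9.29%, and CCAAT in 40.5% against 37.2%. Median GC content was 58.5% against 58.7%. These are matches of letters and do not show binding.

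The windows below belong to genes among those with the clearest difference between cell types, described in the next paragraphs, and to Mrps11, which shares its start region with Mrpl46. Capitals mark the ETS motif in Mrpl43 (chr19:45006393-45006692, minus strand), the NRF1 motif in Mrpl12 (chr11:120484387-120484686, plus strand) and the YY1 motif in Mrpl50 (chr4:49521034-49521333, minus strand) and Mrps11 (chr7:78782881-78783180, plus strand). Mrps2 (chr2:28467816-28468115, plus strand) held none of these motifs in its window. Each sequence is written in the direction of transcription.
Mrpl43: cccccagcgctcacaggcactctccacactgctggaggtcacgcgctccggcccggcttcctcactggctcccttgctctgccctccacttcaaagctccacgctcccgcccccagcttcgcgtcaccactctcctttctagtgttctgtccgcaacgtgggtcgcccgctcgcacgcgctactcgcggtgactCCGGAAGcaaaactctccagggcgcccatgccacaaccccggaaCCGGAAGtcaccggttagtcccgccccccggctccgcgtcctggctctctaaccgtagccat
Mrpl12: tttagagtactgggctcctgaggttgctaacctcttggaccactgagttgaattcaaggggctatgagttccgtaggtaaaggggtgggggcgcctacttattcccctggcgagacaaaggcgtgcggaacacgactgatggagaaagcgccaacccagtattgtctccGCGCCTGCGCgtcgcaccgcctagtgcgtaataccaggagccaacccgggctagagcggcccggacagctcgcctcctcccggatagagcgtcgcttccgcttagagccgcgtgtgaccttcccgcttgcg
Mrpl50: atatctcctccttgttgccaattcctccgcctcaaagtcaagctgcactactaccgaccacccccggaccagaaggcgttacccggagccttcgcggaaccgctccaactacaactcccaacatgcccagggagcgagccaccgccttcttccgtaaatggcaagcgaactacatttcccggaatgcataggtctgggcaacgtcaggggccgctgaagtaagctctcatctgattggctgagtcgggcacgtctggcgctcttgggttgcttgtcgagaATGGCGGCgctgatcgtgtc
Mrps11: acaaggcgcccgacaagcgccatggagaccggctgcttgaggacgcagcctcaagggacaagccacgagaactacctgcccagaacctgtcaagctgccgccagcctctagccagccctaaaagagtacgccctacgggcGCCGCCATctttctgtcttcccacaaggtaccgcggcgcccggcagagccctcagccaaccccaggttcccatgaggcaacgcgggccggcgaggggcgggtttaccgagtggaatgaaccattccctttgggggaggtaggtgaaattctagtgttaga
Mrps2: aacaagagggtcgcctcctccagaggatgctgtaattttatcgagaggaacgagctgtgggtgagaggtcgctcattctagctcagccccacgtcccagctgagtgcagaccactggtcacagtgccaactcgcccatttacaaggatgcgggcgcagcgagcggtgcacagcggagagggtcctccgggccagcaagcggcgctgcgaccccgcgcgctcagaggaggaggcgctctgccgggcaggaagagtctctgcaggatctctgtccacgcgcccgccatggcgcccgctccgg

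As a group, the mitochondrial ribosomal protein genes were higher in OB than in MSC libraries. Values are normalized counts, the deposited reads per gene divided by a size factor per library, and differences are log2 fold changes of the normalized count plus 1, with their standard error. The threshold was an adjusted p of 0.05 in limma, with p-values adjusted over all genes tested by the method of Benjamini and Hochberg. In deficient mice 46 of the 77 genes were higher in OB and 1 was lower, while over all genes tested 29.0% were higher and 30.6% lower. In wild-type mice 54 were higher in OB and 1 was lower, against 34.4% and 35.5% of all genes tested. The median log2 difference of the 77 genes was 0.62 in deficient mice (all genes -0.02) and 0.76 in wild-type mice (all genes 0.01). The ranges of OB and MSC libraries did not overlap for 49 genes in deficient mice (55.2% of all genes tested) and for 54 in wild-type mice (65.5%), so separation as such was common among all genes.

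**Figure D1:**
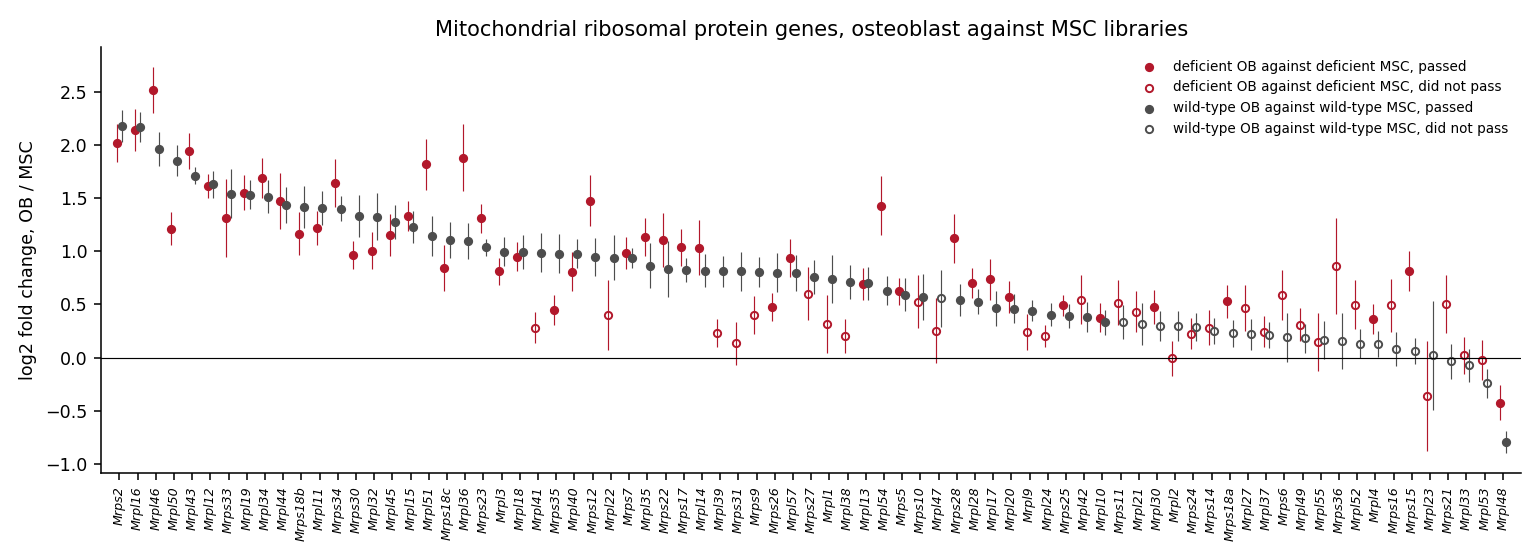
Log2 fold change of each of the 77 genes, OB over MSC libraries, in deficient mice (red) and wild-type mice (grey), ordered by the wild-type value. Bars are standard errors, filled points passed an adjusted p of 0.05 and open points did not. Mrps2, Mrpl16 and Mrpl46 lie highest, near 2 and above, and Mrpl48 is the lowest and the single gene that passed below 0.

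The same direction was seen in the share of each library's reads. The 77 genes took 0.261, 0.281, 0.299 and 0.318% of reads in deficient OB E to H and 0.275, 0.289, 0.303 and 0.287% in wild-type OB A to D. They took 0.117, 0.125, 0.114 and 0.133% in deficient MSC and 0.114, 0.123, 0.124 and 0.119% in wild-type MSC. No OB library came near an MSC library, and deficient and wild-type libraries overlapped within each cell type. The mean share was 2.37 times as high in OB as in MSC of deficient mice and 2.40 times in wild-type mice, and the sum of normalized counts 1.73 and 1.70 times. Dividing by total reads in place of the size factors, a setting chosen after seeing the data, put the median of all genes at 0.43 in deficient and 0.51 in wild-type mice. On that scale 71 of the 77 genes were higher in OB of deficient mice, with 44.7% of all genes, and 73 in wild-type mice, with 50.6%. Their median was then 1.07 in deficient and 1.25 in wild-type mice. Counting error alone spans at most 0.0028 percentage points on either side of a share (Wilson, 95%).

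**Figure D2:**
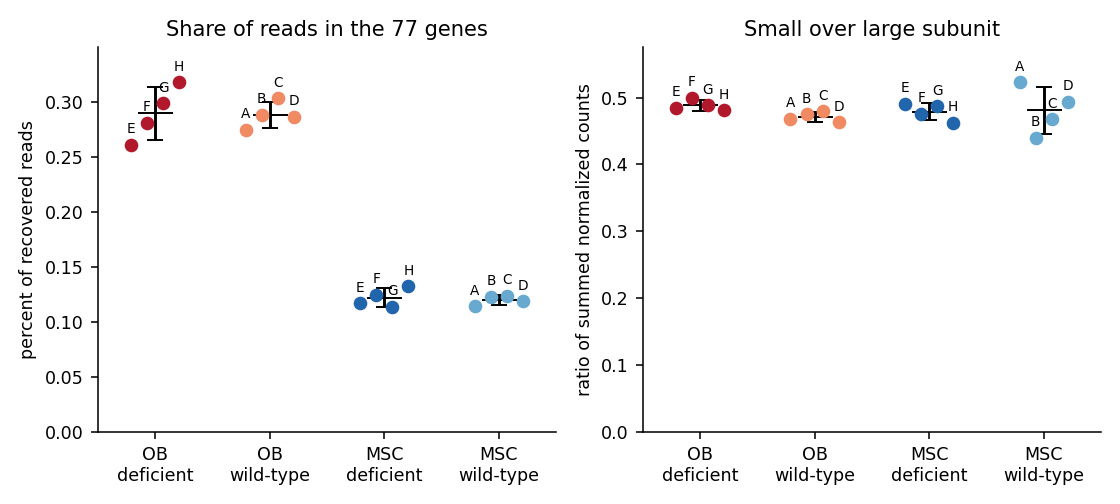
Left, percent of recovered reads in the 77 genes for each library, and right, summed normalized counts of the 26 small-subunit genes over those of the 50 large-subunit genes. Points are libraries labelled by mouse, with the mean and SD of each group of 4. The share is 0.261 to 0.318% in OB and 0.114 to 0.133% in MSC, and the subunit ratio stays between 0.439 and 0.523.

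Blood progenitor and cell cycle markers moved with this difference. Summed normalized counts of the 10 blood progenitor markers were 17824 to 22022 in deficient OB, 20062 to 22629 in wild-type OB, 4048 to 4456 in deficient MSC and 4689 to 6104 in wild-type MSC. The 12 cell cycle markers summed to 27833 to 38320, 33762 to 38128, 5803 to 9175 and 8204 to 10847 in the same groups, with no marker of either list at 0 in any library. The 9 neutrophil markers summed to 10239.5 to 13126, 10975 to 31433, 30028.5 to 60816 and 28878 to 119173. These were lower in OB, with some overlap in wild-type mice. Cell type and proliferation cannot be told apart here, nor can fewer cells of a type and less RNA per cell. Within deficient OB, the summed normalized counts of the 77 genes were 31540, 34043, 35886 and 37159 in E, F, G and H. Blood progenitor markers (17824, 18573, 20920 and 22022) stood in the same order. So did the cell cycle markers (27833, 32484, 37108 and 38320) and the erythroid, endothelial and macrophage markers. Neutrophil, B-cell, osteoblast and skeletal muscle markers did not. The MSC markers summed to 21527, 39899, 9101 and 3525 in deficient OB E to H, highest in E and F. In the other groups the sums of the 77 genes and of the blood progenitor markers did not stand in the same order. In wild-type OB A to D they were 34897, 35599, 36994 and 36010 against 20564, 20062, 22629 and 21343. Without deficient OB E and F 41 of the 77 genes (53.2%) were higher in OB of deficient mice, against 23.9% of all genes in that fit. Without deficient MSC G and H it was 43 (55.8%), against 26.7%. The part of other cell content in the result was not tested.

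Both subunits and both evolutionary classes took part. Over all genes tested, 29.0% were higher in OB of deficient mice and 34.4% in wild-type mice. In deficient mice 16 of 26 small-subunit genes and 30 of 50 large-subunit genes were higher in OB, with median log2 differences of 0.61 and 0.63. In wild-type mice the counts were 19 of 26 and 35 of 50, with medians of 0.80 and 0.73. Of 47 genes with a bacterial homologue, 29 were higher in OB of deficient mice and 31 of wild-type mice, and of 29 mitochondria-specific genes 17 were higher in deficient and 23 in wild-type mice. The ratio of summed small-subunit to large-subunit counts averaged 0.488 ± 0.00816 in deficient OB, 0.471 ± 0.00734 in wild-type OB, 0.479 ± 0.0126 in deficient MSC and 0.481 ± 0.0356 in wild-type MSC (SD, n = 4 each). The ranges of this ratio overlapped between cell types in each genotype and between genotypes in MSC. Within OB they did not overlap, at 0.481 to 0.4997 in deficient and 0.463 to 0.479 in wild-type libraries, a difference that was not tested.

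The deficient and wild-type comparisons of cell types share no library, so each is a separate measurement. The number of genes higher in OB in both was 42, which is 91.3% of the 46 in deficient and 77.8% of the 54 in wild-type mice. Over all genes tested in both the shares were 90.04% and 76.0%, so the overlap was near the background. The sign was the same for 73 of 77 genes (94.8%), against 88.4% of all genes. Across the 77 genes the log2 differences of the 2 genotypes had a Pearson r of 0.82 and a Spearman rho of 0.76, against 0.92 and 0.92 over all genes, a description over genes that are measured in the same libraries. The difference exceeded 2-fold in both genotypes for 19 genes (24.7%, against 14.03% of all genes), and 18 genes passed in neither.

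Mrps2, the counterpart of the bacterial small-subunit protein S2, had a steep difference. It stood at 828, 850.0, 957 and 1099.6 normalized counts in deficient OB and 994, 928, 1108 and 1046 in wild-type OB. In MSC it stood at 259, 238, 261 and 165 in deficient and 228, 236, 165 and 279.5 in wild-type mice. All 8 OB libraries thus lay far above all 8 MSC libraries, with log2 differences of 2.02 ± 0.18 (adjusted p = 2.64e-05) in deficient and 2.18 ± 0.15 (3.68e-07) in wild-type mice. Mrpl16, whose bacterial counterpart L16 contacts transfer RNA near the peptidyl transferase centre, showed the same pattern. It averaged 752 ± 102 in deficient OB against 172 ± 43.2 in deficient MSC, and 794 ± 79.7 in wild-type OB against 177 ± 29.2 in wild-type MSC (SD, n = 4). Its log2 differences were 2.15 ± 0.20 (adjusted p = 3.26e-05) and 2.17 ± 0.14 (2.49e-07).

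Mrpl43, a mitochondria-specific large-subunit protein, was the most abundant of the 77 genes in OB. It had 1138, 1178, 1433 and 1487 normalized counts in deficient OB and 1312, 1328, 1392 and 1407 in wild-type OB. In deficient MSC it had 385, 374, 358 and 249.9, and in wild-type MSC 448, 399, 425 and 385. The groups of the 2 cell types were far apart, at 1.94 ± 0.17 (adjusted p = 2.38e-05) in deficient and 1.71 ± 0.08 (2.8e-08) in wild-type mice. Its exons overlap those of Twnk, the mitochondrial DNA helicase gene, and since it is not stated whether reads were counted by strand, part of these reads may be assigned uncertainly. Mrpl12, a stalk protein that also binds the mitochondrial RNA polymerase, had 862, 896, 949 and 950.0 normalized counts in deficient OB and 1012, 1016, 1048 and 1067 in wild-type OB. Against them stood 318, 312, 286 and 275 in deficient MSC and 372, 408, 289 and 281 in wild-type MSC. The OB libraries were about 3 times as high in both genotypes, with log2 differences of 1.62 ± 0.11 (adjusted p = 8.83e-06) and 1.63 ± 0.13 (8.61e-07).

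Mrpl46 and Mrps11 are a large-subunit and a small-subunit gene that point away from each other on chromosome 7, and their annotated starts overlap by 412 bases (Mrpl46 at chr7:78775236-78783531, minus strand, and Mrps11 at chr7:78783119-78792989, plus strand). Mrpl46 had 505, 525, 577 and 592 normalized counts in deficient OB and 619.9, 603, 608 and 609 in wild-type OB, against 65.7, 126, 85.0 and 114 in deficient MSC and 186, 188, 116 and 144 in wild-type MSC. Its log2 differences of 2.52 ± 0.22 (adjusted p = 2.53e-05) and 1.96 ± 0.16 (1.31e-06) were among the largest of the group. Mrps11, chosen here for its position, had 176, 173, 219 and 171 in deficient OB and 211, 208, 185 and 182 in wild-type OB. In deficient MSC it had 112, 164, 141 and 105, and in wild-type MSC 151, 159, 134 and 182. Its differences were 0.52 ± 0.21 (adjusted p = 0.0557) and 0.33 ± 0.16 (0.0877), so the neighbours that share a start region gave differences of unlike size, though the difference between them was not tested.

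**Figure D3:**
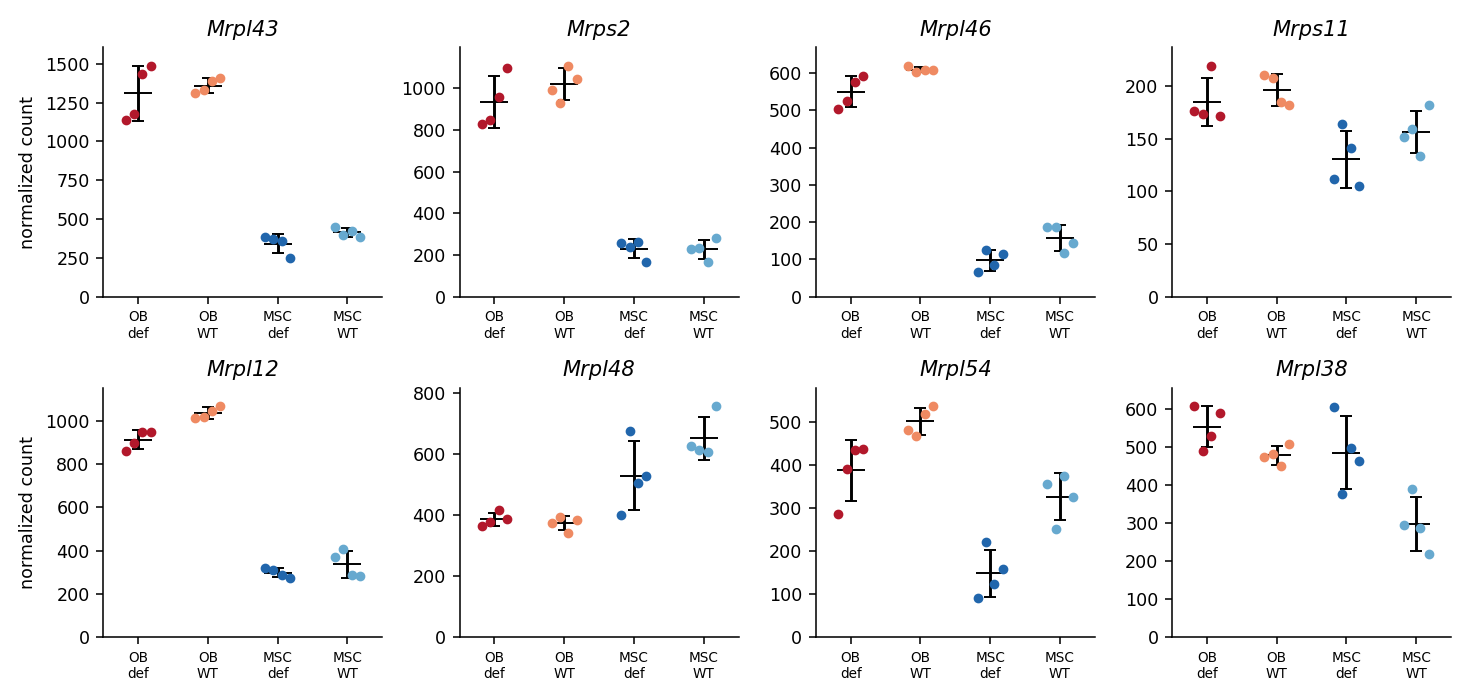
Normalized counts of 8 of the genes in each library, with the mean and SD of each group of 4 (def, deficient). The OB groups lie above the MSC groups without overlap for Mrpl43, Mrps2, Mrpl46 and Mrpl12, Mrpl48 averages 387 and 374 in OB against 529.5 and 652 in MSC, and Mrpl54 and Mrpl38 differ most by genotype within MSC.

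A head-to-head arrangement, with the start of a protein-coding neighbour on the opposite strand at most 1000 bases away or overlapping by at most 500, was found for 26 of the 77 genes (33.8%). The share was 11.4% among the 16871 protein-coding genes of the expression data. Among them, Mrps12 faces Sars2, the mitochondrial seryl-tRNA synthetase gene, across 172 bases, and Mrpl36 overlaps Ndufs6, a complex I subunit gene, by 29 bases. Exons of 25 genes overlap another annotated gene, so their counts share the uncertainty given for Mrpl43.

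Further genes with the smallest p values in this direction were Mrps23, Mrpl50 and Mrpl19. Mrps23, a mitochondria-specific small-subunit protein, averaged 977 ± 108 normalized counts in deficient OB against 394 ± 55.6 in deficient MSC, and 971 ± 12.4 in wild-type OB against 473 ± 28.5 in wild-type MSC. Mrpl50, a mitochondria-specific large-subunit protein, averaged 836 ± 49.9 against 365 ± 72.4 in deficient mice, OB first, and 824 ± 63.2 against 230.1 ± 48.2 in wild-type mice. Mrpl19, a relative of bacterial L19, averaged 789 ± 72.3 in deficient OB against 271 ± 49.3 in deficient MSC, and 780.4 ± 24.2 in wild-type OB against 273 ± 56.4 in wild-type MSC. All passed in both genotypes with non-overlapping groups.

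Mrpl48, a mitochondria-specific protein of the large subunit, was the exception. It had 367, 379, 416 and 388 normalized counts in deficient OB and 375, 395, 342 and 386 in wild-type OB, against 403, 678, 507 and 530.4 in deficient MSC and 629, 614, 609 and 757 in wild-type MSC. The deficient groups overlapped through MSC library E, and the wild-type groups did not overlap. The log2 difference was -0.43 ± 0.16 (adjusted p = 0.0464) in deficient mice and -0.80 ± 0.11 (5.57e-05) in wild-type mice. The deficient call was lost on leaving out any 1 deficient library other than MSC library E (adjusted p up to 0.095), without a filter and in edgeR, and scaling to total reads turned its sign (0.022, adjusted p = 0.914). Its exons overlap the gene Rab6a, a Golgi transport GTPase.

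Genes of known function inside the ribosome mostly followed the group. Mrps12, the counterpart of the decoding-site protein S12, averaged 429 ± 67.6 in deficient OB against 157 ± 50.5 in deficient MSC (1.48 ± 0.24, adjusted p = 0.000587), and 399 ± 37.3 in wild-type OB against 210.2 ± 51.8 in wild-type MSC (0.95 ± 0.18, 0.000718). Mrps5, another relative of a bacterial small-subunit protein, was higher by 0.62 ± 0.13 in deficient and 0.59 ± 0.15 in wild-type mice. Mrpl3, whose bacterial counterpart L3 lies near the peptidyl transferase centre, was higher by 0.81 ± 0.13 and 1.00 ± 0.13, and the stalk-base protein gene Mrpl11 by 1.22 ± 0.16 and 1.41 ± 0.16. Mrpl44, a mitochondria-specific protein with a fold like that of ribonuclease III, was higher by 1.48 ± 0.26 and 1.44 ± 0.17. Mrps22, a mitochondria-specific small-subunit protein, was higher by 1.11 ± 0.25 and 0.83 ± 0.26. All of these genes passed in both genotypes.

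The Mrps18 paralogs, all related to bacterial S18, differed in their values. Mrps18b, of the small subunit, averaged 246 ± 10.4 in deficient OB against 111 ± 24.0 in deficient MSC, and 254 ± 31.4 in wild-type OB against 95.2 ± 20.3 in wild-type MSC. Mrps18c, also of the small subunit, averaged 269 ± 46.4 in deficient OB against 149.5 ± 30.7 in deficient MSC, and 287 ± 17.5 in wild-type OB against 135 ± 25.1 in wild-type MSC. Both passed in both genotypes. Mrps18a, of the large subunit, averaged 334 ± 36.1 against 231 ± 26.4 in deficient mice, OB first, and passed there (0.53 ± 0.15, adjusted p = 0.0144), but not without deficient OB library G (0.0516). In wild-type mice it had 279.7, 362, 346 and 319 in OB against 299.7, 285, 278 and 249 in MSC, with overlap, and did not pass (0.23 ± 0.13, adjusted p = 0.136). Whether the paralogs differ from each other was not tested. Mrps30, the other large-subunit member with a small-subunit name, was higher in OB by 0.97 ± 0.13 in deficient and 1.33 ± 0.20 in wild-type mice.

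Several genes did not pass in either genotype. Mrps16, related to bacterial S16, gave log2 differences of 0.49 ± 0.25 in deficient and 0.08 ± 0.16 in wild-type mice (adjusted p = 0.11 and 0.664). Mrps6, related to bacterial S6, gave 0.59 ± 0.23 and 0.19 ± 0.23 (adjusted p = 0.0524 and 0.475), and its exons overlap the transporter gene Slc5a3. Mrps36, the dehydrogenase component, gave 0.86 ± 0.45 and 0.16 ± 0.26 (0.126 and 0.61) at only 35.6 to 61.8 normalized counts on average. Mrpl33, Mrpl53 and Mrpl23, with the smallest p among the genes below 0 in at least 1 genotype, gave 0.02 ± 0.17, -0.02 ± 0.19 and -0.36 ± 0.51 in deficient mice and -0.07 ± 0.16, -0.24 ± 0.13 and 0.02 ± 0.52 in wild-type mice. A p above the threshold does not show that the cell types were alike, and Mrpl23, at 12.5 to 90.2 normalized counts, varied most widely.

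**Figure D4:**
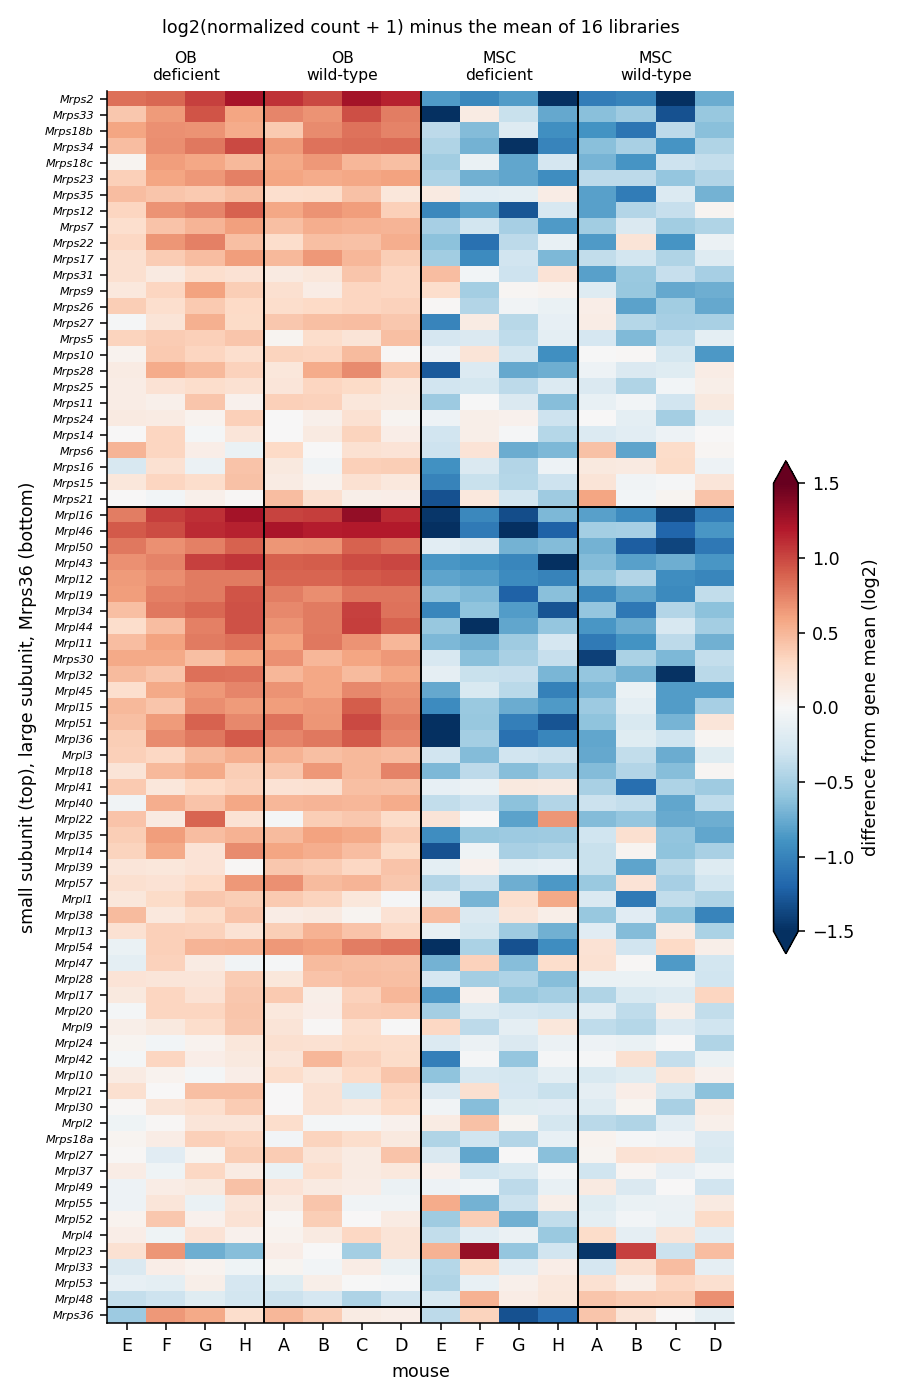
Log2(normalized count + 1) of the 77 genes in each library minus the gene's mean over the 16 libraries, red above and blue below. Rows run by subunit and within it by the wild-type difference of OB over MSC, and columns by group and mouse. Most rows are red in the 8 OB libraries and blue in the 8 MSC libraries, Mrpl48 is reversed, and Mrpl23 varies between mice within each group.

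Compared per length, the genes spanned a wide range of levels. Levels here are normalized counts per kilobase of the median annotated coding transcript (GENCODE vM21). The median gene stood at 335 in deficient OB, 339 in wild-type OB, 190.3 in deficient MSC and 194 in wild-type MSC. In OB the highest level was that of Mrpl43 (936 in deficient and 973 in wild-type mice), followed by Mrpl34 (916 and 958) and Mrpl20 (900.0 and 899). In MSC the highest was Mrpl33, at 831 in deficient and 911 in wild-type mice, where Mrpl43 ranked 28 and 27. Mrpl47 was lowest in every group, at 31.0 in deficient OB, 37.3 in wild-type OB, 27.2 in deficient MSC and 26.0 in wild-type MSC. The highest level was at least 26.1 times the lowest in each group. Levels per length depend on which transcripts a cell makes, which these files do not show.

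Other genes of mitochondrial translation were counted from lists of known members. Over all genes tested, 29.0% were higher and 30.6% lower in OB of deficient mice, and 34.4% and 35.5% in wild-type mice. Of 6 mitochondrial ribosome proteins with other names, 5 were higher in OB of deficient mice and 3 of wild-type mice, among them Chchd1 (1.23 ± 0.16 and 0.80 ± 0.13) and Gadd45gip1 (0.98 ± 0.13 and 0.78 ± 0.13). Of 13 translation factors, 7 and 9 were higher and none lower. Oxa1l, which inserts new proteins into the inner membrane, was higher by 1.32 ± 0.10 in wild-type mice, and Tufm, the elongation factor Tu, by 1.13 ± 0.15. In deficient mice the elongation factor gene Tsfm was higher by 1.16 ± 0.16 and the initiation factor gene Mtif3 by 0.81 ± 0.13.

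A list of 20 genes for charging mitochondrial tRNA held synthetases and the amidotransferase subunit genes Qrsl1, Gatc and Pet112. Of these 20 genes, 10 were higher (50%, all genes 29.0%) and 2 lower in OB of deficient mice. In wild-type mice 15 were higher (75%, all genes 34.4%) and 1 lower. Fars2 (phenylalanine) was higher by 1.04 ± 0.16 in deficient mice, and Yars2 (tyrosine) by 1.10 ± 0.18 in deficient and 1.25 ± 0.18 in wild-type mice. Lars2 (leucine) was lower, by -0.75 ± 0.14 in deficient and -1.38 ± 0.26 in wild-type mice, and Mars2 (methionine) by -0.87 ± 0.29 in deficient mice. Of 24 ribosome assembly factors, 12 were higher (50%, all genes 29.0%) and 3 lower in deficient mice. In wild-type mice 11 were higher (45.8%, all genes 34.4%) and 2 lower. The RNA helicase gene Ddx28 (1.82 ± 0.18) and the ribosomal RNA methyltransferase gene Rnmtl1 (2.43 ± 0.24) led in wild-type mice, and Noa1 (0.95 ± 0.14), a GTPase, and Fastkd2 (1.75 ± 0.26), an RNA-binding protein, in deficient mice. Mterf4, which brings a methyltransferase to the large subunit, was lower by -1.32 ± 0.25 in deficient and -1.68 ± 0.11 in wild-type mice. Mettl17 (-0.64 ± 0.19) was lower in deficient and Mpv17l2 (-0.37 ± 0.13) in wild-type mice.

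The next list held factors for mitochondrial transcription, RNA handling and DNA replication (Polg, Polg2, Peo1 and Ssbp1). Of its 21 genes tested, 13 were higher (61.9%, all genes 29.0%) and 2 lower in OB of deficient mice. In wild-type mice 16 of 20 were higher (80%, all genes 34.4%) and 3 lower. Tbrg4 (1.28 ± 0.10) and Lrpprc (1.25 ± 0.11), which stabilise mitochondrial messages, led in wild-type mice, and the processing enzymes Trmt10c (1.17 ± 0.17) and Supv3l1 (1.08 ± 0.16) in deficient mice. The DNA polymerase gamma genes Polg (-0.69 ± 0.15 and -0.32 ± 0.11, deficient first) and Polg2 (-1.25 ± 0.25 and -1.26 ± 0.20) were lower. Of the regulators, 5 of 10 were higher (50%, all genes 29.0%) and 1 lower in deficient mice. In wild-type mice 6 of 9 were higher (66.7%, all genes 34.4%) and 2 lower. Gabpb1, a subunit of the ETS factor GABP, was higher in OB by 1.38 ± 0.12 and 1.47 ± 0.14, Nrf1 by 0.72 ± 0.11 in wild-type mice and the coactivator gene Ppargc1b by 1.11 ± 0.22 in deficient mice. Myc was lower in OB by -1.81 ± 0.24 and -1.09 ± 0.14, and Tfe3 by -0.25 ± 0.10 in wild-type mice. For scale, the cytosolic ribosomal protein genes, a list chosen after the values were seen, had medians of 0.90 in deficient and 1.30 in wild-type mice, with 75 and 79 of 82 higher in OB.

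Between genotypes within OB, none of the 77 genes passed in limma. Of all genes tested 0.0281% did. edgeR and DESeq2 also called none of the 77, against 0.0281% and 1.36% of all genes. The median log2 difference, deficient over wild-type, was -0.06 (all genes -0.02), with a range of -0.39 to 0.21. At an unadjusted p under 0.05 there were 6 genes, or 7.79% (8.95% of all genes tested), 1 higher and 5 lower. For 7 genes, or 9.09%, the groups did not overlap (5.47% of all genes tested). The first share was near the background and the second was above it, a gap that was not tested. The 95% interval of the difference lay within 1.5-fold for 73 of the 77 genes and within 2-fold for all 77. Over all 14229 genes tested it did so for 9061 and 11134.

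The OB genes with the smallest p moved little. Mrpl24, the counterpart of bacterial L24, had 735, 692, 739.8 and 801 normalized counts in deficient OB against 843, 834, 864 and 857 in wild-type OB. Mrpl12 had 862 to 950.0 in deficient against 1012 to 1067 in wild-type OB. For both genes the groups did not overlap, but the log2 differences of -0.20 ± 0.06 and -0.18 ± 0.06 had adjusted p values of 0.379. Mrpl39, a mitochondria-specific large-subunit protein, had 335, 332, 338 and 298 in deficient OB against 389.7, 383, 366 and 398 in wild-type OB, a difference of -0.24 ± 0.08 (adjusted p = 0.422). Above 0 the smallest p values belonged to Mrpl38 (0.21 ± 0.09, adjusted p = 0.532), Mrps15 (0.16 ± 0.09, 0.636) and Mrps35 (0.15 ± 0.09, 0.639).

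Between genotypes within MSC, again none of the 77 genes passed in limma, while 1.06% of all genes tested did. edgeR called none, against 0.982% of all genes. DESeq2 called 2, Mrpl38 higher and Mrpl54 lower, which is 2.60% of the 77 genes against 8.01% of all genes. The median log2 difference was -0.12 (all genes -0.03), with a range of -1.19 to 0.71. There were 13 genes, or 16.9%, at an unadjusted p under 0.05 (22.8% of all genes tested) and 7, or 9.09%, whose groups did not overlap (12.4%), so both shares were below the background. The spread was wider here than in OB: among the 75 or 76 of the 77 genes with a group mean of 50 or more, the median coefficient of variation was 19.6% in deficient and 18.3% in wild-type MSC, against 10.8% in deficient and 8.25% in wild-type OB. Over all genes at that level it was 22.3 and 16.7% in MSC and 11.8 and 8.35% in OB, deficient first, so the wider spread in MSC was shared by all genes. The 95% interval lay within 1.5-fold for 18 of the 77 genes and within 2-fold for 56. Over all 14964 genes tested it did so for 3414 and 8266.

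Mrpl54, a mitochondria-specific large-subunit protein, had the smallest p in MSC. It had 91.6, 220.4, 123 and 159 normalized counts in deficient MSC against 355, 251, 375 and 326 in wild-type MSC, and 286, 391, 436 and 438 in deficient OB against 482, 469, 519.8 and 537 in wild-type OB. The deficient libraries lay below the wild-type ones without overlap in both cell types, by -1.19 ± 0.28 in MSC (adjusted p = 0.0611) and -0.39 ± 0.14 in OB (adjusted p = 0.429). Over the other settings its adjusted p in MSC ran from 0.00579 to 0.287. Without deficient MSC library F it was 0.00656. Mrpl38, a mitochondria-specific protein of the large subunit, had 606, 376, 498 and 465 in deficient MSC against 294, 391, 288 and 219 in wild-type MSC, with overlap through F and B (0.71 ± 0.21, adjusted p = 0.103, and 0.0279 without F).

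The remaining MSC genes named by their p values fell on both sides. Mrpl50 averaged 365 ± 72.4 in deficient against 230.1 ± 48.2 in wild-type MSC (0.66 ± 0.22, adjusted p = 0.118), and Mrpl41, a mitochondria-specific large-subunit protein, 238 ± 23.8 against 151 ± 30.1 (0.67 ± 0.22, 0.123). Mrps15, the counterpart of bacterial S15, averaged 191 ± 38.8 in deficient against 285 ± 25.7 in wild-type MSC (-0.59 ± 0.21, 0.141). Mrpl51, a mitochondria-specific large-subunit protein, averaged 142 ± 47.0 against 247 ± 72.2 (-0.81 ± 0.29, 0.144). Leaving out deficient MSC library F gave 2 genes higher and 5 lower in place of 0, which is 9.09% of the 77 genes against 15.3% of all genes tested in that fit. Fitting all 16 libraries together gave 6 higher and 7 lower, 16.9% against 14.4% of all genes.

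Members with short transcripts had the lower values in deficient MSC. The Spearman rho of transcript length with the log2 difference was 0.32 over the 77 genes, with a median of -0.29 in the 26 shortest and 0.02 in the 26 longest. Over all 13493 genes with a length, rho was 0.09. For genotype in OB rho of the 77 genes was 0.08, and for OB over MSC it was 0.04 in deficient and 0.29 in wild-type mice, with wild-type medians of 0.42 in the shortest and 0.84 in the longest. Over all genes the rho values of OB over MSC were -0.15 in deficient and -0.11 in wild-type mice. This is a description over genes that share libraries. Deficient MSC libraries G and H also held more skeletal muscle RNA, with summed marker counts of 1655 and 5668, against 511 and 577 in E and F and 323 to 577 in wild-type MSC. Among other lists, 3 of 9 B-cell markers tested were lower in deficient MSC (median -1.63), as were 3 of 12 osteoblast markers (median -1.07). Of 12 cell cycle markers 1 was lower (median -0.43), and of 9 neutrophil markers 0 passed in limma (median -1.001). An unadjusted p under 0.05, in either direction, was reached by 8 B-cell, 9 osteoblast, 5 cell cycle and 3 neutrophil markers. Of all genes tested 22.8% reached it. The median over the 82 cytosolic ribosomal protein genes was 0.37 with 3 higher. Over all genes tested between genotypes in MSC, 0.501% were higher and 0.561% lower. Of the regulators, Myc averaged 6432 ± 1222 normalized counts in deficient against 3036 ± 602 in wild-type MSC (1.09 ± 0.18, adjusted p = 0.027). The part of length, other cell content and Myc in the values of the 77 genes was not tested.

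**Figure D5:**
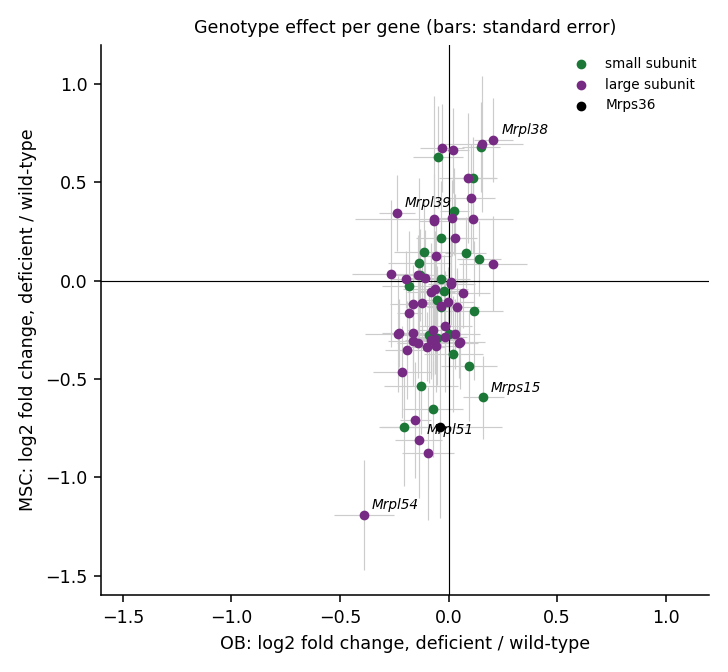
Log2 fold change of each of the 77 genes, deficient over wild-type, in OB (horizontal) and in MSC (vertical), with standard errors, coloured by subunit. OB values lie between -0.39 and 0.21 and MSC values between -1.19 and 0.71, none passed an adjusted p of 0.05, and Mrpl54 is lowest on both axes.

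The genotype effects in OB and MSC were also compared directly, as the difference of the effects, OB minus MSC. None of the 77 genes passed in limma, against 0.0129% of all genes tested. There were 9 at an unadjusted p under 0.05 (11.5% of all genes tested). edgeR called none, against 0.00643% of all genes. DESeq2 called 1 of the 77 (1.30%, all genes 0.816%), Mrps15, which differed by 0.75 ± 0.22 (limma adjusted p = 0.272). Next by p were Mrpl54 (0.80 ± 0.32, 0.37) and Mrpl51 (0.67 ± 0.31, 0.429) above 0, and Mrpl41 (-0.70 ± 0.23, 0.294), Mrpl39 (-0.58 ± 0.19, 0.294) and Mrpl50 (-0.64 ± 0.22, 0.314) below 0.

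The edited microRNA recognises messages mainly through its seed, bases 2 to 8, shown in capitals in the RefSeq sequence of the mature 5p strand.
miR-9-5p: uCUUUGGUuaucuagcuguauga
A match to this seed, ACCAAAG, was in the longest annotated 3′ UTR of 5 of the 77 genes (6.49%), against 12.9% of 16881 genes of the table. The 3′ UTRs of the 77 genes were also shorter, with a median of 332 bases against 1023. The 5 genes were Mrpl11, Mrpl18, Mrpl19, Mrpl54 and Mrps25. Their differences, deficient over wild-type, were 0.03 ± 0.10, -0.16 ± 0.11, 0.01 ± 0.08, -0.39 ± 0.14 and -0.03 ± 0.06 in OB. In MSC they were 0.22 ± 0.22, -0.12 ± 0.20, -0.01 ± 0.22, -1.19 ± 0.28 and -0.14 ± 0.15. None of these passed in limma.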

How the data were processed

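Poly(A) RNA libraries were made with a NEBNext Ultra kit, per the labels' protocols. The deposited signal values are normalized counts per gene symbol, and per the submitters' processing notes DESeq2 1.24.0 and mm10 were used. For aligner, counter, annotation and use of strand, the sources used here name nothing. All deposited values became whole reads (100% within 0.01) when multiplied by 1 size factor per library.

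A gene entered a fit when 4 or more of its libraries reached 10 normalized counts. Tests were run on log2(normalized count + 1) with limma 3.58.1 (trend) in R 4.3.3, each comparison on its own 8 libraries and the difference of effects on 16. All 77 genes passed this filter. The log2(value + 1) scale understates changes of low genes. Per direction and comparison the named genes are the 6 passing genes with the smallest p, or the 3 smallest where fewer than 3 passed, plus genes fixed by role. Mrps11 was added after its values were seen. The values of 1 gene that this rule names are not reported here. The members and lists were chosen with earlier results of these data known. Alternatives were another pseudocount, other filters, quantile normalization, array weights, a replicate block, 1 fit of all libraries, left-out libraries and scaling to total reads. edgeR 4.0.16 and DESeq2 1.42.0 were run on recovered reads. The code was tested on simulated data.

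Deviations of the OB and MSC libraries of a mouse correlated with r of 0.0241 to 0.285, and 7 of 8 mice correlated best with their own. The labels use 1 animal number in both cell types, which was taken as the pairing, although an OB library may hold RNA of more than 1 mouse. Replicate pairs differed beyond sampling noise (chi-square per degree of freedom 9.92 to 120.2). Whether libraries are separate cultures or sorts is not given, so p-values measure the spread between these samples.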

Additional observations from a re-analysis of the deposited data

Results flagged for a closer look

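Among 140 groups of 4 values examined, 7 held a value that lay far from the other libraries of its group, and chance flags about 1 in 20 groups, or 7 here. In deficient OB, Mrpl39 was low in H (297.6 normalized counts, others 332 to 338) and Mrps30 low in G (539.5, others 587 to 596). In deficient MSC, Mrpl19 was low in G (197.4, others 290.0 to 300.5), Mrpl3 was low in F (372.4, others 468 to 481) and Mrpl39 was high in F (308.0, others 265 to 270.3). In wild-type MSC, Mrpl41 was low in B (106.2, others 161 to 170.1) and Mrpl48 was high in D (757.4, others 609 to 629).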

How the results depend on the processing

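The share of the 77 genes higher in OB exceeded that of all genes under every setting run. When a library was left out it was 42 to 55 genes (54.5 to 71.4%, all genes 24.8 to 30.8%) in deficient and 50 to 56 (64.9 to 72.7%, all genes 31.5 to 35.5%) in wild-type mice. With the mouse as a replicate block (a paired fit), 48 higher and 1 lower in deficient and 54 higher and 1 lower in wild-type mice passed. Of all genes in those fits 29.3% were higher and 31.8% lower in deficient mice, and 34.2% and 35.3% in wild-type mice. The block changed no count of the 77 genes for the difference of effects. For genotype within a cell type no paired fit exists, because each mouse has 1 genotype.

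Scaling to total reads, chosen after seeing the data, gave medians of 1.07 (deficient) and 1.25 (wild-type), with 71 higher and 0 lower in deficient mice, and -0.013 for genotype in MSC. Quantile normalization gave 0.86 in wild-type mice (all genes 0.17) and -0.042 in MSC, and array weights 0.73 in deficient mice. Leaving out a library moved the medians over 0.60 to 0.72 (deficient), 0.70 to 0.79 (wild-type), -0.15 to -0.07 (MSC genotype), -0.06 to 0.01 (OB genotype) and 0.02 to 0.11 (difference of effects, 0.13 without deficient OB E and F). The single lower gene in deficient mice, Mrpl48, fell to 0 lower without a filter, in edgeR, without deficient MSC G and H, without deficient OB E and F, and in the range 0 to 1 when a library was left out.

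For genotype in MSC, the counts were 2 higher and 1 lower with array weights (3.90%, all genes 11.5%), 1 and 1 in DESeq2 (2.60%, all genes 8.01%), 6 and 7 in 1 fit of all 16 libraries (16.9%, all genes 14.4%), and 0 to 2 higher and 0 to 5 lower when a library was left out. For the difference of effects DESeq2 gave 1 higher (1.30%, all genes 0.816%). Signs turned for genes that had not passed: between cell types of wild-type mice Mrps6 (-0.066 to 0.345 when a library was left out), Mrpl33 (-0.186 to 0.053 when a library was left out, 0.42 scaled to total reads) and Mrpl53 (0.25 scaled to total reads), and of deficient mice Mrpl23 (0.075 quantile, 0.076 total reads) and Mrpl53 (0.030 edgeR, 0.42 total reads, 0.18 without MSC G and H, 0.0023 without OB E and F, -0.148 to 0.058 when 1 library was left out). Mrpl48, which had passed, turned to 0.022 with total reads. The causes were not tested. The part of depth in the values of low genes such as Mrpl23 was not tested either.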
